A study of Mus musculus with 8 samples.

Results

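The adipogenic differentiation genes described here are 10 genes that control or mark the formation of fat cells: Pparg, Cebpa, Cebpb, Cebpd, Fabp4, Adipoq, Lpl, Cd36, Plin1 and Cfd. They were chosen by their Ensembl identifiers, and 9 of the 10 had a row among the 17592 genes in the table. Cd36 (ENSMUSG00000002944), a fatty acid transporter, had no row there, so its expression was not analysed. The comparison had 2 groups of 4 arrays. The first was mesenchymal stem cells from mouse bone marrow (strain given as C57B6/J, expanded in culture to passage 10) exposed to ropivacaine for 24 h. The second was cells of the same kind that received no treatment, collected at 24 h. Ropivacaine is an amide local anaesthetic, a blocker of sodium channels in nerve. The dose is given as 100 uM in the sample annotation and as 100 mM in the treatment protocol. Micromolar is used here. The labels name no adipogenic inducer and give standard culture conditions for both groups.

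Mesenchymal stem cells of the marrow can become adipocytes, osteoblasts or chondrocytes. In mouse preadipocyte lines, the transcription factors C/EBP-beta and C/EBP-delta appear early after induction and switch on Pparg and Cebpa, whose products then maintain each other. Together PPAR-gamma and C/EBP-alpha activate the genes of the mature fat cell, which take up, bind and store fatty acids (Lpl, Fabp4, Plin1) and secrete hormones and complement factors (Adipoq, Cfd).

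No measured adipogenic gene was called as changed by ropivacaine. At a Benjamini-Hochberg adjusted p below 0.05 in limma, 0 of the 9 genes were higher and 0 were lower, where 0.404% of all 17592 genes were called. At an adjusted p below 0.1, 1 of the 9 was called (Fabp4), against 0.853% of all genes. Fabp4 had a level 1.22-fold higher on the ropivacaine arrays, and its limma adjusted p was 0.054. At an unadjusted limma p below 0.05, 2 of the 9 genes were higher (Pparg and Fabp4), against 5.34% of all genes. By the same measure 1 of the 9 was lower (Cfd), against 4.41% of all genes. The 4 ropivacaine values lay above all 4 control values for Fabp4 and Pparg, against 3.54% of all genes with such a separation. They lay below all control values for 0 of the 9 genes, against 3.15% of all genes. The median log2 difference (ropivacaine minus control) was 0.02 over the 9 genes and -0.005 over all genes. Its median size without regard to sign was 0.115 over the 9 genes and 0.055 over all genes. The median standard error of the difference was also larger, 0.074 over the 9 genes and 0.062 over all genes. Of the 9 differences, 5 were positive and 4 negative. In these bulk samples, a change in the number of cells of a type and a change in RNA per cell cannot be told apart.

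**Figure D1:**
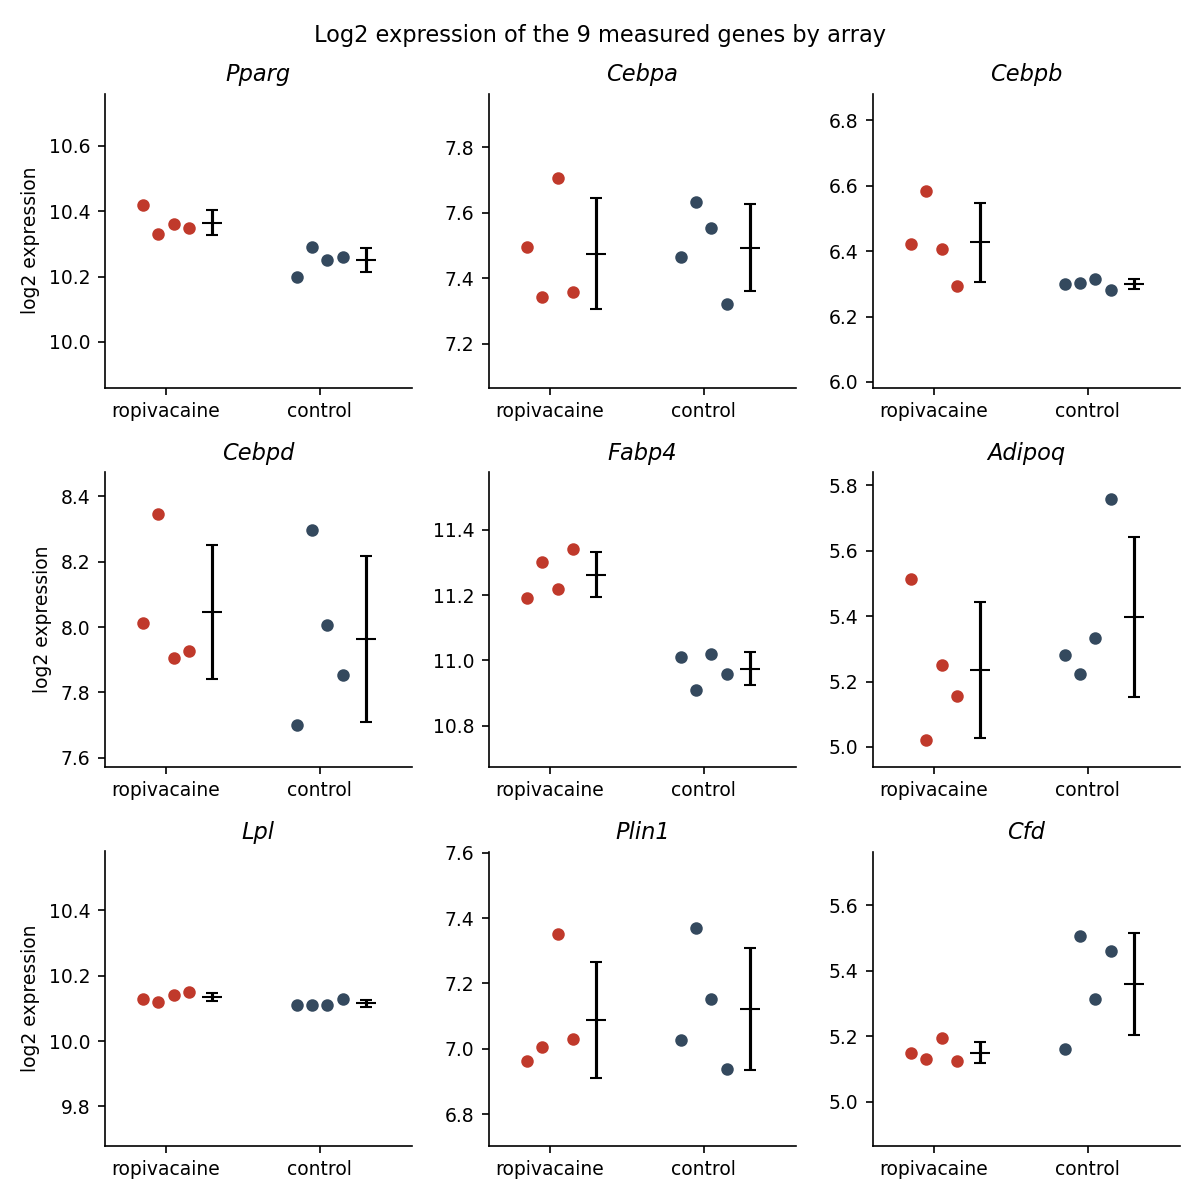
Log2 expression (vertical axes, log2 units, each panel spanning the same range) of the 9 measured genes on the 4 ropivacaine arrays (left, replicates 1 to 4 from left to right) and the 4 control arrays (right); the bar beside each group is the mean with its SD. The groups do not overlap for Fabp4 and Pparg and overlap for the other 7 genes.

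Of the 9 genes, 4 encode transcription factors. Pparg (ENSMUSG00000000440) encodes the nuclear receptor PPAR-gamma, which is required for adipocyte formation. Its log2 expression was 10.42, 10.33, 10.36 and 10.35 on ropivacaine replicates 1 to 4, against 10.2, 10.29, 10.25 and 10.26 on control replicates 1 to 4. Every ropivacaine value was above every control value, with a gap of 0.04 between the lowest ropivacaine and the highest control array. The means were 10.365 ± 0.04 with ropivacaine and 10.25 ± 0.04 in control cells (SD, n = 4 each). The log2 difference of 0.115 (SE 0.04, 95% interval 0.03 to 0.20) was a 1.08-fold higher level and did not pass the threshold (limma unadjusted p = 0.0165, adjusted p = 0.361). With 1 array left out, the difference stayed between 0.10 and 0.13.

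The table has 1 row for Pparg, so transcripts from different start sites were not told apart. The RefSeq promoter table (GRCm38.p6) lists 3 starts for the gene, and the 250 bases before each are shown because any of them could feed that row. The window before the start of Cebpb is shown beside them, since C/EBP-beta acts upstream of Pparg in the cascade. All 4 lie on the plus strand. Capitals mark matches on either strand to the TATA box, spelled TATAAA, to the CCAAT box of those letters, to the GC box, spelled GGGCGG, to the half-site of nuclear receptors, spelled AGGTCA, or to the half-site of the cAMP response element, spelled TGACG.
Pparg start 1, chr6:115360894-115361143: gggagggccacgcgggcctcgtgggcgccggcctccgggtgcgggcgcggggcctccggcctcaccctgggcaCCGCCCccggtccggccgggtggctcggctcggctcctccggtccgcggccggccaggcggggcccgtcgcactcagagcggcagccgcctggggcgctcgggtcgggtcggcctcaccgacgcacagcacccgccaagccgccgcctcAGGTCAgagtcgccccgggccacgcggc
Pparg start 2, chr6:115362099-115362348: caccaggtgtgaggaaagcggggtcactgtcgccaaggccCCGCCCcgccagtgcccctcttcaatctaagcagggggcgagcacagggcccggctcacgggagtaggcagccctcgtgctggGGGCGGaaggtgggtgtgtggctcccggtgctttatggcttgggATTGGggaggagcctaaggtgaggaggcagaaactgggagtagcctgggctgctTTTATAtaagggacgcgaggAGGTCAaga
Pparg start 3, chr6:115421816-115422065: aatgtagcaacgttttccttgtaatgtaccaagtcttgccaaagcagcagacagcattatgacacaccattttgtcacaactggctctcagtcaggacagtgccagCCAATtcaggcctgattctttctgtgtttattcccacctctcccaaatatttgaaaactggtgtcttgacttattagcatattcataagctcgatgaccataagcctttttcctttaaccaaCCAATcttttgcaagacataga
Cebpb, chr2:167688665-167688914: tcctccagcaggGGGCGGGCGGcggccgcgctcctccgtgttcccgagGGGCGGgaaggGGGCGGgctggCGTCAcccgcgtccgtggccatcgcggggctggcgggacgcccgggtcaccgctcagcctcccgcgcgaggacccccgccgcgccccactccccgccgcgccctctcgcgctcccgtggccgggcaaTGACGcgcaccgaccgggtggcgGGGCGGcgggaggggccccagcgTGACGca

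The 3 Pparg windows differed in composition. Bases G and C made up 82.4% of the first, 63.6% of the second and 40.8% of the third, against a median of 52.4% over all 32851 windows of this length. The first held 1 GC box and 1 nuclear receptor half-site. The second held a TATA box match, on the minus strand, at positions -29 to -24 relative to the start. It also held 1 CCAAT box, 2 GC boxes and 1 half-site, and the third held 2 CCAAT boxes alone. The Cebpb window, with 81.6% G and C, held 5 GC boxes, of which the first 2 overlap, and 3 cAMP half-sites. Of all windows, 12.4% held the TATA box, 33.8% the CCAAT box, 32.7% the GC box, 14.0% the nuclear receptor half-site and 17.8% the cAMP half-site. TTGCGCAA, a palindromic site for C/EBP proteins, was in 0.164% of all windows, and the direct repeat AGGTCANAGGTCA, which contains that half-site and is bound by PPAR-gamma with its partner RXR, was in 0.0335%. Neither was in any of the 9 windows listed for 7 of the 10 genes. Fabp4, Lpl and Cebpd had no window in the table. These matches describe letters in the windows and do not show binding.

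Cebpb (ENSMUSG00000056501) encodes C/EBP-beta, an early regulator that is also induced by cAMP and by inflammatory signals. Log2 expression was 6.421, 6.585, 6.407 and 6.294 on ropivacaine replicates 1 to 4, against 6.301, 6.303, 6.316 and 6.28 on control replicates 1 to 4. The control arrays were nearly level, while the ropivacaine arrays were spread out: 3 lay above all control arrays and replicate 4 lay among them. The means were 6.43 ± 0.12 with ropivacaine and 6.3 ± 0.015 in control cells (SD, n = 4 each). With ropivacaine Cebpb was 0.13 higher on the log2 scale (SE 0.06, 95% interval -0.01 to 0.26, limma adjusted p = 0.555). Without ropivacaine replicate 2 it was 0.07, and without ropivacaine replicate 4 it was 0.17.

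Cebpd (ENSMUSG00000071637) encodes C/EBP-delta, the partner of C/EBP-beta in the early phase and a gene that glucocorticoids induce. The log2 values of Cebpd were 8.013, 8.346, 7.904 and 7.926 on ropivacaine replicates 1 to 4, against 7.7, 8.296, 8.005 and 7.853 on control replicates 1 to 4. Replicate 2 was the highest array in each group, and the groups overlapped over most of their range. The log2 difference was 0.08 (SE 0.14, 95% interval -0.24 to 0.40, limma adjusted p = 0.898). It was 0.19 without control replicate 2, and its sign turned without ropivacaine replicate 2 (-0.016) or without control replicate 1 (-0.004). The interval allows a change of up to 1.32-fold upward or to 0.848 of the control level.

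Cebpa (ENSMUSG00000034957) encodes C/EBP-alpha, which sustains Pparg in the maturing adipocyte and supports its insulin response. On the log2 scale it read 7.494, 7.341, 7.708 and 7.358 on ropivacaine replicates 1 to 4, against 7.466, 7.632, 7.552 and 7.322 on control replicates 1 to 4. The highest array was ropivacaine replicate 3, the lowest was control replicate 4, and the groups overlapped. For Cebpa the log2 difference was -0.02 (SE 0.10, 95% interval -0.24 to 0.20, limma adjusted p = 0.976). Its sign turned in 4 of the 8 fits with 1 array left out, those without ropivacaine replicates 2 or 4 or control replicates 2 or 3, where it lay between 0.002 and 0.029. Without ropivacaine replicate 3 it was -0.095.

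Among the genes of fatty acid handling, Fabp4 (ENSMUSG00000062515) stood apart. It encodes the fatty acid-binding protein of adipocytes (aP2), a target of PPAR-gamma that macrophages and capillary endothelium also express. Its log2 expression was 11.19, 11.3, 11.22 and 11.34 on ropivacaine replicates 1 to 4, against 11.01, 10.91, 11.02 and 10.96 on control replicates 1 to 4. The groups were separated by a gap of 0.17, wider than the range of either group. The means were 11.26 ± 0.07 with ropivacaine and 10.975 ± 0.05 in control cells (SD, n = 4 each). The log2 difference was 0.29 (SE 0.05, 95% interval 0.18 to 0.40), a level 1.22-fold higher with an interval of 1.13 to 1.32. It was larger in size than the difference of 96.5% of all genes.

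Fabp4 lay at the border of the call. Its unadjusted limma p of 0.00025 ranked 81 among 17592 genes, and the largest such p among the 71 called genes was 0.000198. The adjusted p of 0.054 fell below the threshold under 4 other settings. It was 0.016 with an intensity trend in limma, where 0.767% of all genes were called. Without the dimmest 25% of genes it was 0.031 (0.864% of the genes tested called), and without the dimmest 50% it was 0.014 (2.04% called). With array weights it was 0.046, where 0.597% of genes were called. With 1 array left out it lay between 0.0996 and 0.168, while the log2 difference stayed between 0.26 and 0.31.

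**Figure D2:**
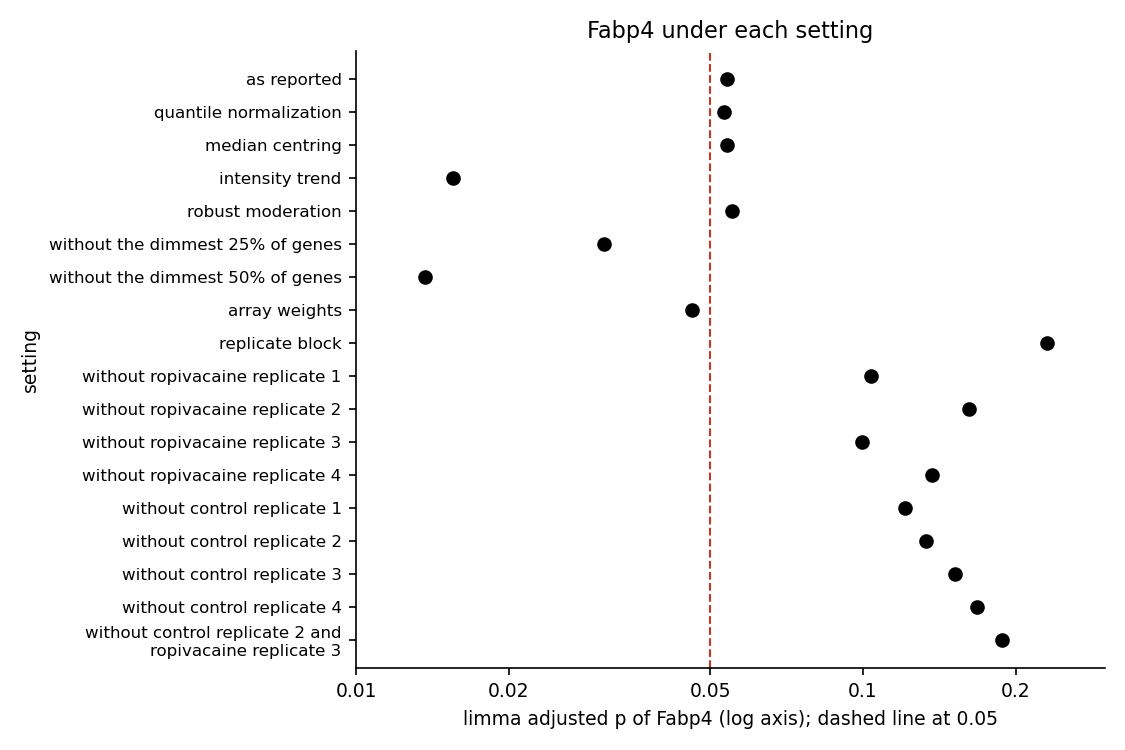
Limma adjusted p of the Fabp4 difference (horizontal log axis, dashed line at 0.05) under each setting (rows). The value as reported, 0.054, lies just right of the line, 4 settings lie left of it, and the fits with fewer arrays or with the replicate number as a block lie between 0.0996 and 0.231.

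Lpl (ENSMUSG00000015568) encodes lipoprotein lipase, which frees fatty acids from circulating triglycerides. The log2 values of Lpl were 10.13, 10.12, 10.14 and 10.15 on ropivacaine replicates 1 to 4, against 10.11, 10.11, 10.11 and 10.13 on control replicates 1 to 4. All 8 values lay within 0.04 of each other, and values of 10 and above were deposited in steps of 0.01, so Lpl was nearly constant. The log2 difference was 0.02 (SE 0.03, 95% interval -0.05 to 0.09, limma adjusted p = 0.892). In fold terms the interval ran from 0.964 to 1.07 times the control level, the narrowest of the 9 genes. Lpl and Fabp4 are both bright, and the interval of Lpl did not reach that of Fabp4; the difference between the genes was not tested.

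Plin1 (ENSMUSG00000030546) encodes perilipin 1, which coats the lipid droplet of adipocytes and guards it from lipases. The log2 values of Plin1 were 6.963, 7.006, 7.351 and 7.029 on ropivacaine replicates 1 to 4, against 7.027, 7.37, 7.153 and 6.937 on control replicates 1 to 4. Ropivacaine replicate 3 and control replicate 2 were the high arrays and were nearly equal. For Plin1 the log2 difference was -0.03 (SE 0.11, 95% interval -0.29 to 0.22, limma adjusted p = 0.956). It was 0.007 without ropivacaine replicate 1 and 0.048 without control replicate 2, and -0.12 without ropivacaine replicate 3.

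Cfd and Adipoq were dim and had negative differences that did not pass the test. Cfd (ENSMUSG00000061780) encodes complement factor D, or adipsin, a serine protease that adipocytes secrete. Its log2 expression was 5.149, 5.129, 5.194 and 5.123 on ropivacaine replicates 1 to 4, against 5.161, 5.507, 5.313 and 5.461 on control replicates 1 to 4. The ropivacaine arrays were close together, 3 control arrays lay above them, and control replicate 1 lay among them. The means were 5.15 ± 0.03 with ropivacaine and 5.36 ± 0.16 in control cells (SD, n = 4 each). The log2 difference was -0.21 (SE 0.07, 95% interval -0.38 to -0.04, limma unadjusted p = 0.02, adjusted p = 0.391). It ranged from -0.28 without control replicate 1 to -0.16 without control replicate 2.

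Adipoq (ENSMUSG00000022878) encodes adiponectin, a hormone of mature adipocytes that raises insulin sensitivity. The log2 values of Adipoq were 5.513, 5.021, 5.25 and 5.157 on ropivacaine replicates 1 to 4, against 5.28, 5.222, 5.332 and 5.758 on control replicates 1 to 4. The highest array was control replicate 4, the lowest was ropivacaine replicate 2, and the groups overlapped. For Adipoq the log2 difference was -0.16 (SE 0.14, 95% interval -0.48 to 0.15, limma adjusted p = 0.779). With 1 array left out it ranged from -0.26 without ropivacaine replicate 1 to -0.04 without control replicate 4, and it was -0.09 without ropivacaine replicate 2. Both Cfd and Adipoq had mean signals below the first quartile of gene means, 5.72. No background measure was used here, so neither is given a linear fold.

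**Figure D3:**
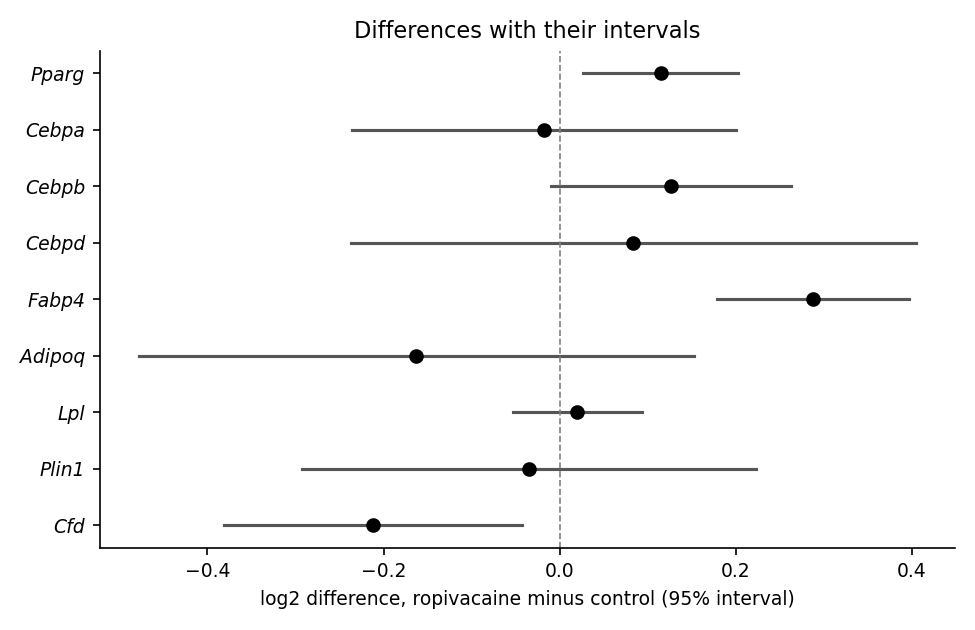
Log2 difference, ropivacaine minus control (horizontal axis, log2 units), for each of the 9 genes (rows); points are limma estimates and lines their 95% intervals. The intervals of Fabp4 and Pparg lie above 0, that of Cfd lies below 0, and those of the other 6 genes include 0; these intervals are not adjusted for the number of genes tested.

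The genes thus fell into 3 signal ranges. Fabp4, Pparg and Lpl had mean log2 signals of 11.12, 10.31 and 10.12, all in the brightest 25% of genes. Cebpd, Cebpa, Plin1 and Cebpb had means of 8.01, 7.48, 7.10 and 6.36, in the middle of the range. Adipoq and Cfd, at 5.32 and 5.25, were in the dimmest 25%. Probes differ in response, so these signals do not rank the amounts of the transcripts. The spread between arrays also differed among genes, from an SD of 0.01 for Lpl in control cells to 0.25 for Cebpd in control cells.

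The arrays differed in how often they were the highest or lowest of their group. Among the control arrays, replicate 2 was the highest for 5 of the 9 genes (Pparg, Cebpa, Cebpd, Plin1 and Cfd) and the lowest or tied lowest for 3 (Fabp4, Adipoq and Lpl). Ropivacaine replicate 3 was the highest of its group for 3 genes, Cebpa, Plin1 and Cfd, little more than replicates 1, 2 and 4, with 2 genes each. Control replicate 1 and ropivacaine replicate 2 were each the lowest or tied lowest of their group for 4 genes. For Cebpa, control replicate 2 and ropivacaine replicate 3 lay 0.15 and 0.22 above the mean of the 8 arrays, and for Plin1 0.27 and 0.25 above it. These were also the arrays of lowest estimated weight over all genes, 0.580 for control replicate 2 and 0.708 for ropivacaine replicate 3. Without both, the log2 difference was -0.05 for Cebpa, -0.04 for Plin1, 0.24 for Cebpd, 0.13 for Pparg, 0.28 for Fabp4 and -0.18 for Cfd. The part of array quality in these values was not tested.

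**Figure D4:**
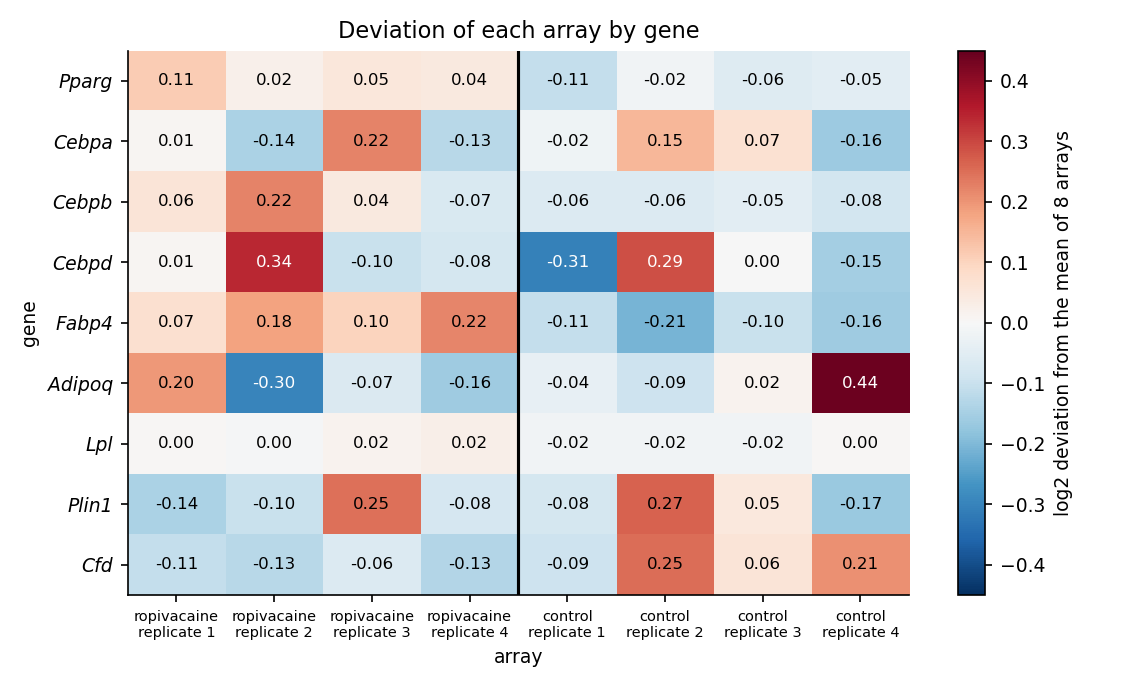
Deviation of each array (columns, ropivacaine left of the line and control right of it) from the mean of the 8 arrays, in log2 units, for each of the 9 genes (rows); red is above and blue below the mean. Fabp4 and Pparg are above the mean on all 4 ropivacaine arrays and below it on all 4 control arrays, while Cebpa and Plin1 are highest on ropivacaine replicate 3 and control replicate 2.

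Across all genes, the arrays correlated at 0.990 to 0.995, every array had a median of 6.914, and ropivacaine arrays were higher for 50 and lower for 21 of the 71 genes called. Called genes differed by at least 0.22 on the log2 scale, so a difference of the size seen for Pparg, 0.115, was smaller than that of any called gene. The table pairs no other identifier with a gene name, so markers of stromal, macrophage and endothelial cells were not read, and the part of other cell types in these values was not tested. The labels do not state whether replicates were separate cultures or animals, so each p-value rests on a spread between samples that may be purely technical.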

How the data were processed

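Each of 8 samples was hybridised as biotin-labelled cDNA to 1 Affymetrix mouse exon array. The deposited table holds log2 values, 1 row per Ensembl gene, and, per the submitters' processing notes, the authors used RMA. This method brings all arrays to a common distribution, so overall shifts in signal cannot be seen. For probe sets, annotation release and RMA version, the sources used here give nothing. Scan batches and background calls were not used, and the 4 arrays per group limit the precision.

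Groups come from the sample titles. All 17592 genes were fitted with limma 3.58.1 in R 4.3.3 (default eBayes, two-sided, no covariate), with Benjamini-Hochberg adjustment over all genes. The fit was also tried on data simulated from the means and spreads of these arrays. All measured members are named. The members, the lists and the settings were chosen with earlier results of these data known. Symbols of the 10 members came with the definition of the set. Lists of other adipogenic genes and of cell markers, written as symbols, could not be applied. Alternatives covered scaling, moderation, dim genes, array weights, a replicate block, arrays left out and thresholds. Promoter windows are from RefSeq (GRCm38.p6), matched by symbol for 7 of the 10 members, and cover the 250 bases before a start. Figures were drawn with matplotlib 3.10.9.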

Additional observations from a re-analysis of the deposited data

Results flagged for a closer look

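Among 18 sets of 4 values (9 genes in 2 groups), each tested for an array far from the others of its group, chance flags about 1 in 20 where values are not tied. For Plin1, ropivacaine replicate 3 read 7.351 and the nearest ropivacaine array 7.029, a gap of 0.830 of the group's range against a critical value of 0.829. Without that array the log2 difference of Plin1 was -0.12 (limma adjusted p = 0.693). For Lpl, control replicate 4 read 10.13 while the other 3 control arrays were tied at 10.11 by the deposited rounding to steps of 0.01. With such ties any gap fills the whole range, so the test says nothing about the distance of 2 steps. Without that array the log2 difference of Lpl was 0.025 (limma adjusted p = 0.923).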

How the results depend on the processing

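The count of 0 called adipogenic genes became 1, Fabp4 each time, with an intensity trend, without the dimmest 25% or 50% of genes, with array weights, and at an adjusted p below 0.1, and 3 (Pparg, Fabp4 and Cfd) at an unadjusted p below 0.05. It was 0 under quantile normalization, median centring, robust moderation, the replicate block and with any array left out (range 0 to 0). The 71 called genes became 135 with an intensity trend, 114 and 179 without the dimmest 25% and 50% of genes (where fewer were tested), and 15 at an adjusted p below 0.01. They became 3 with the replicate block, 15 to 31 with any 1 of the 8 arrays left out, and 7 without both control replicate 2 and ropivacaine replicate 3. Some of those fits use fewer samples or genes, and the cause of the changed counts was not tested. Of the alternatives, 7 (scaling, moderation, dim genes, block) moved the log2 differences of single genes by at most 0.00014, most of them by construction, so the directions kept there are no sign of stability. The other 10, array weights and arrays left out, gave 90 values of single genes: 81 kept their direction and side of the threshold, 1 passed it (Fabp4 with array weights) and 8 turned sign, all with 1 array left out. There the log2 difference ranged from -0.095 to 0.029 for Cebpa, from -0.016 to 0.195 for Cebpd, from -0.122 to 0.048 for Plin1 and, without a change of sign, from -0.255 to -0.043 for Adipoq. The labels state no pairing, so the numbers were not taken as pairs in the main fit. Same-numbered arrays of the groups deviated together with correlations of 0.138, 0.009, 0.056 and 0.070, all positive. For 4 of the 8 arrays, the closest of the 4 arrays of the other group had the same number. These values do not decide whether the numbers mark pairs. With the replicate block, the limma adjusted p was 0.231 for Fabp4 and 0.516 for Pparg, and no member's call changed. The standard errors of Fabp4, Pparg, Lpl and Cfd rose with the block. That of Cebpd fell from 0.14 to 0.07 (limma adjusted p = 0.766 with the block), and those of Cebpa, Cebpb, Adipoq and Plin1 fell less. Counts for lists of other adipogenic genes were not run, because the rows carry no symbols. The depth of signal over background is unknown, which limits Adipoq and Cfd most.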
